A study of Homo sapiens with 6 samples.

Results

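The NF-kB members described here are 39 genes in 6 roles: 5 subunits of the transcription factor, 5 IkB proteins, 4 IKK kinase genes, 7 adaptors and feedback regulators, 15 secreted factors and 3 surface or enzyme targets. They were chosen by name and role rather than by a threshold on their values, but with earlier results of these data known. Their counts beside those of all genes therefore describe the list and test nothing. All 39 were found among the 25528 gene symbols measured by RNA-seq in DU-145/tet-XISTshRNA cells that received either vehicle or DOX. Of these, 32 had a mean of at least 1 on the scale defined below and were tested with the other expressed genes. The 7 that did not reach this minimum were TNF, IL1A, IL1B, CCL2, CCL20, CSF2 and PTGS2, and their reads are given apart.

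NF-kB factors are dimers of the subunits RELA, RELB, REL, NFKB1 and NFKB2, which IkB proteins hold inactive in the cytoplasm. Receptors for TNF, IL-1 and microbial products act through TRAF and IRAK adaptors on the IKK complex, which marks IkB proteins for destruction and frees the dimers to enter the nucleus. There they drive genes for cytokines, chemokines and adhesion molecules and also for their own inhibitors, NFKBIA and TNFAIP3, so that the response is self-limiting. Prostate cancer cells without androgen receptor signalling, the DU-145 line among them, are known for constitutive NF-kB activity and secretion of IL-6 and IL-8.

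DU-145 is a castration-resistant prostate cancer line, and the cells of all 6 samples carried a doxycycline (DOX)-inducible short hairpin RNA against XIST, the long noncoding RNA that coats the inactive X chromosome. The 3 vehicle samples received 0.1% DMSO and the 3 DOX samples received 500 ng/ml DOX for 7 days. The samples analysed here hold no cells with a control hairpin treated with DOX, so an effect of DOX itself and an effect of the hairpin cannot be told apart. The paper states in general that its experiments used independent biologic replicates and that cells for RNA-seq were cultured in triplicate. The labels do not say how these samples were kept apart, and p-values measure the spread between them except where samples were treated as pairs. XIST, the gene the hairpin targets, was listed at 0 in all 6 samples, as was the translation factor gene EIF4A1, so silencing could not be checked from these values. The epithelial markers KRT8, KRT18, KRT19, EPCAM and CDH1 were present and KRT5 was at 0, with summed levels of 193 to 254 scaled TPM with vehicle and 278 to 371 scaled TPM with DOX. KRT8, KRT18 and KRT19 made up most of these sums, and EPCAM was lower in every DOX sample (12.3 to 13.7 scaled TPM) than in any vehicle sample (15.2 to 17.5 scaled TPM). Of 6 leukocyte markers only CD68 exceeded 1 scaled TPM on average, while PTPRC was at or near 0 and the endothelial and fibroblast lists summed to at most 0.0681 scaled TPM in any sample.

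The values are transcripts per 1000000 transcripts (TPM), which allow comparison between genes because they are divided by transcript length. A few small RNAs held 67.5% to 82.6% of the TPM in each sample, so each sample was divided by its median ratio to the other samples, and the result is called scaled TPM. Vehicle replicates 1, 2 and 3 had scale factors of 1.05, 1.11 and 1.41, compared with 0.694, 1.01 and 0.930 in the DOX replicates. Reads counted on genes ranged from 5459261 in vehicle replicate 3 to 64624062 in DOX replicate 1, and the sampling error of a gene with few reads is therefore largest in vehicle replicate 3. Fold changes are on the log2(scaled TPM + 1) scale, which understates the change of genes with low values. To be called, a gene needed a fold change over 1.5 together with an adjusted p-value below 0.05.

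NF-kB dimers bind a short, nearly palindromic DNA sequence that lies near the start of many of their target genes. The letters GGANNTTCC and their reverse GGAANNTCC, which can overlap on the strands of 1 site, were searched in a promoter window of 300 bases from RefSeq (GRCh38.p14) that was given for 33 of the members. A match was present in 13 of these 33 (39.4%), compared with 807 of all 17332 promoters (4.66%). The list was drawn up from NF-kB components and their targets, so the higher share is no independent result. The 6 sites below belong to the members with the lowest fold changes that have a match, and to the inhibitor NFKBIA. They are shown so that the members can be compared by sequence, on the strand of the gene, 5′ to 3′, with the match in capitals.
CXCL8: tgcaaatcgtGGAATTTCCtctgacataa
IL6: atcaaatgtgGGATTTTCCcatgagtctc
CXCL2: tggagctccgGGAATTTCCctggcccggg
NFKBIZ: ttttggtctgGGAATTTCCagtgtgcaga
REL: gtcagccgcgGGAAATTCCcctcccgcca
NFKBIA: tgactggcttGGAAATTCCccgagcctga
The printed stretches lie at chr4:73740468-73740496 for CXCL8, chr7:22727118-22727146 for IL6, chr4:74099254-74099282 for CXCL2, chr3:101827758-101827786 for NFKBIZ, chr2:60881518-60881546 for REL and chr14:35404812-35404840 for NFKBIA. Within them, the match begins 91 bases before the start of CXCL8, 72 before that of IL6, 77 before that of CXCL2, 222 before that of NFKBIZ, 46 before that of REL and 81 before that of NFKBIA, whose window holds 2 matches of which this is the nearer. CSF2, CXCL1, CXCL3, ICAM1, NFKB1 and TNFAIP3 also held a match before their start. The window runs past the start, and the match of TRAF1 began 8 bases after it. Distances were counted from the RefSeq start, which for several of these genes, CXCL8, IL6 and REL among them, lies inside the gene as GENCODE annotates it. A match describes these letters and does not show that a factor binds there.

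DOX was compared with vehicle to ask whether expression of NF-kB components and their inflammatory targets differs when the hairpin against XIST is induced. None of the 32 members passed the call rule (0 lower and 0 higher by limma on scaled TPM), and 0% of the 11595 genes tested were called lower and 0% higher. When the fold change was required with an unadjusted p-value below 0.05, IL6, NFKBIZ, CXCL8 and REL (4 members) were lower and 0 members were higher, compared with 1.15% of all genes lower and 1.18% higher. The log2 fold changes of the members ran from -0.80 to 0.58 with a median of 0.06, where the genes tested as a whole had a median of 0.02. Of the 32 values, 14 were below 0 and 18 above. The groups did not overlap for 7 members, 2 of them lower with DOX (9.15% of all genes were) and 5 higher (10.9% of all genes were). The counts of 0 called belong to limma on scaled TPM. The paper, which used DESeq2 on read counts, reports both down- and upregulated genes in XIST-silenced DU-145 cells.

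**Figure D1:**
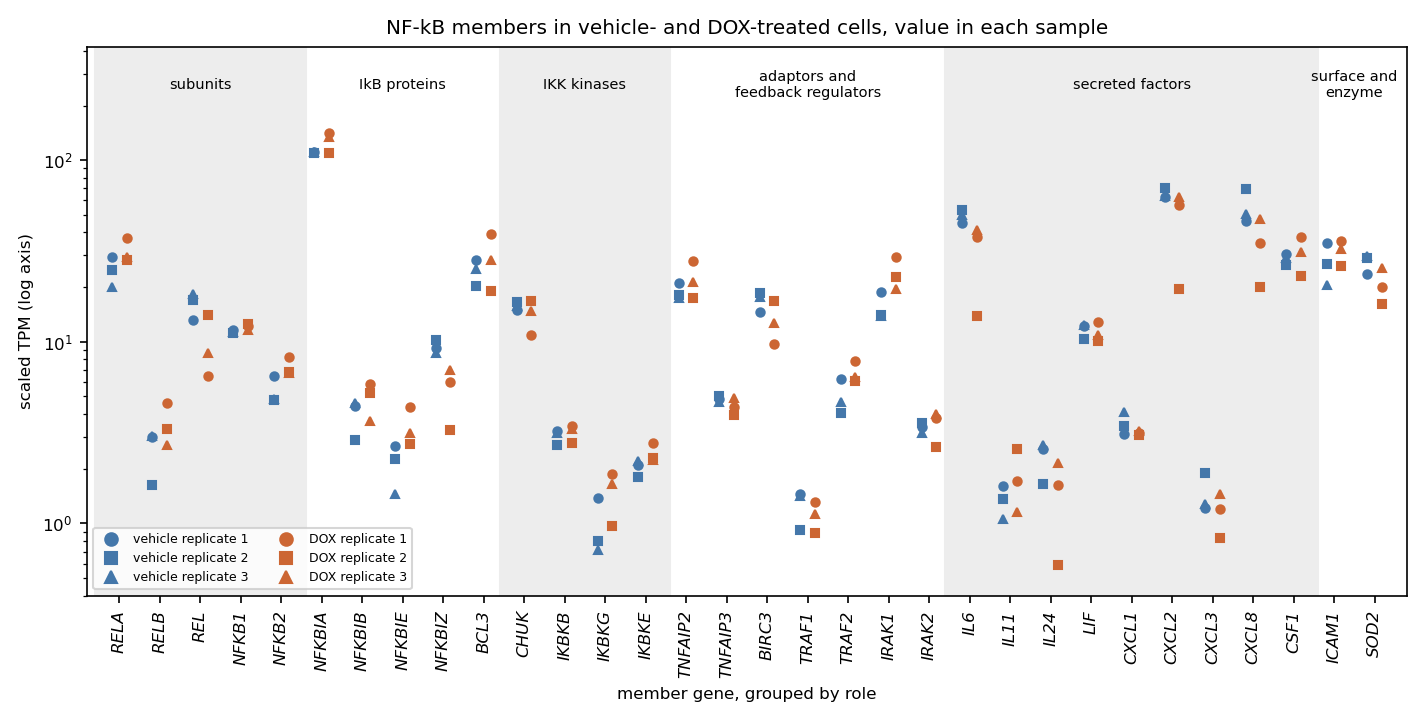
Each point is the value of 1 member gene in 1 sample, in scaled TPM on a log axis, with vehicle samples in blue and DOX samples in orange. The genes are grouped by role. NFKBIA was the highest member, at 110.5 ± 0.842 scaled TPM (SD, n = 3) with vehicle, and DOX replicate 2 (orange squares) lay lowest for IL6, CXCL8, CXCL2, NFKBIZ and IL24.

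The choice of scale and test changed these calls. With TPM as deposited the median of all genes moved to -0.35, and 2.73% of all genes were called lower and 0.0345% higher. On that scale 6 members were called lower by limma (REL, NFKBIZ, IL6, IL24, CXCL2 and CXCL8), with log2 fold changes from -1.23 for IL6 (adjusted p = 0.0278) to -0.76 for IL24 (adjusted p = 0.0485) and with 27 members below 0 and 5 above. Limma voom on reads recovered from the TPM, with the replicate number as a block, called 2.15% of all genes lower and 1.47% higher. It called 2 members lower (REL and NFKBIZ) and 1 higher (IRAK1), and each of these 3 is described below. Voom without the block called none of these 3, and the labels do not say that equal replicate numbers mark pairs. With the block, p-values measure the spread of the differences between samples of equal number. After correction for GC content and length of the genes, 0 members were called by limma on scaled TPM. By the unadjusted rule IL6 and NFKBIZ (2 members) were lower, compared with 48 lower and 14 higher of the 10788 genes corrected. The voom fit with the block and this correction also called 0 members. By the unadjusted rule it had 4 members lower, compared with 129 lower and 29 higher of the 10788 genes.

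**Figure D2:**
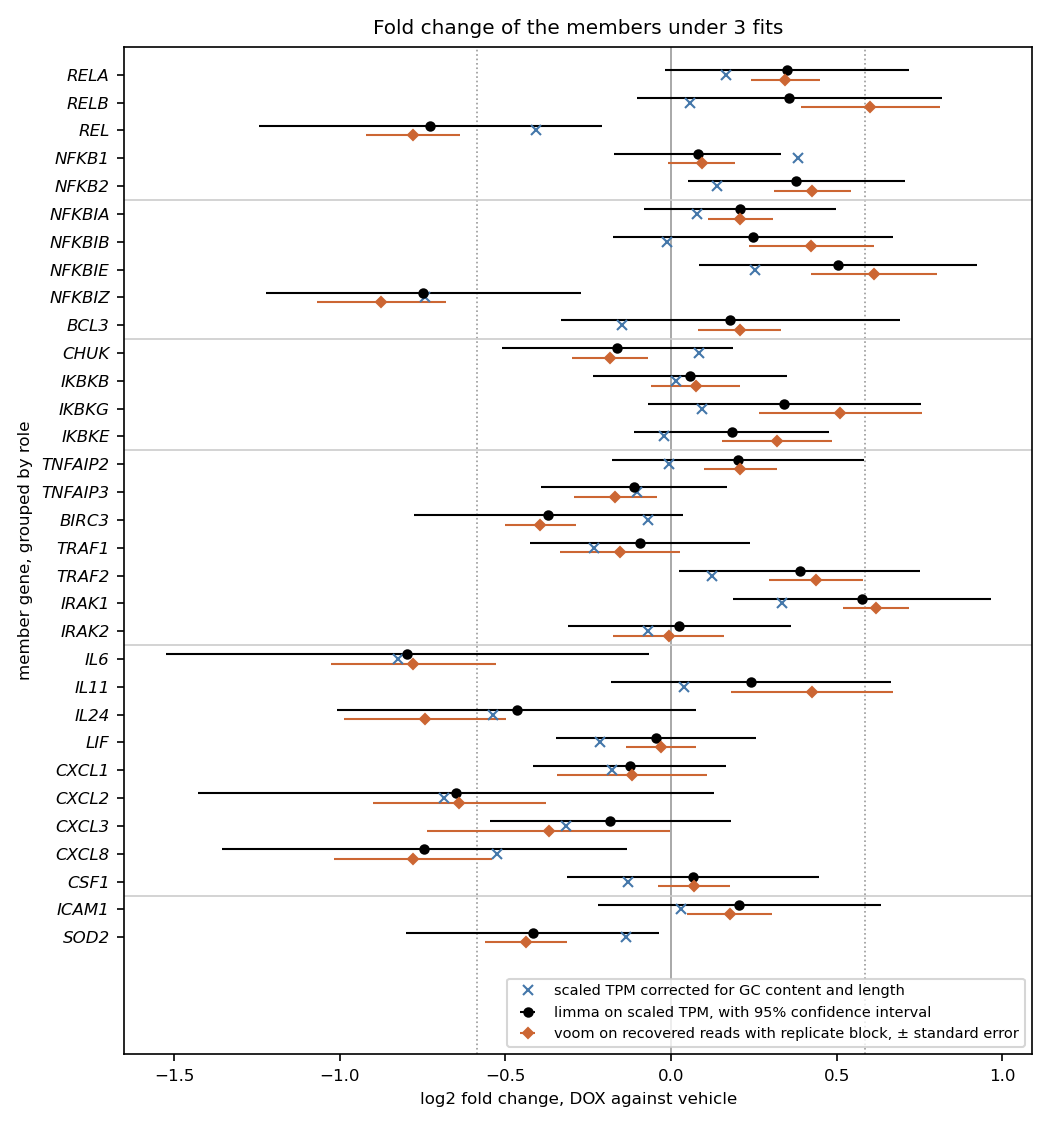
Log2 fold change of DOX against vehicle for the 32 members tested, grouped by role, with dotted lines at the fold change of 1.5 needed for a call. Black points are limma on scaled TPM with their 95% confidence intervals, orange diamonds are voom on recovered reads with the replicate block and their standard errors, and blue crosses are scaled TPM corrected for GC content and length. REL, NFKBIZ, IL6, CXCL8 and CXCL2 lie farthest to the left, and the cross of REL lies nearer to 0 than its other values.

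Of the subunits, REL had a lower mean in DOX-treated cells and the others had higher means, with 4 of 5 log2 fold changes above 0 on the scaled values and 1 of 5 with TPM as deposited. REL encodes c-Rel, a subunit with an activation domain that is best known from lymphocytes (chr2:60881491-60931612, GRCh38). Its level was 13.2, 16.9 and 18.4 scaled TPM in vehicle replicates 1, 2 and 3 and 6.50, 14.0 and 8.64 scaled TPM in DOX replicates 1, 2 and 3. DOX replicate 2 lay above vehicle replicate 1, so the groups overlapped, and DOX replicate 1 was lowest. The log2 fold change of REL was -0.73 (standard error 0.23, adjusted p = 0.280 by limma, 95% confidence interval -1.24 to -0.21). In the voom fit with the replicate block REL fell, with a log2 fold change of -0.78 (standard error 0.14, adjusted p = 0.0128). Without the block, voom gave REL an adjusted p-value of 0.230. Corrected for GC content and length, the log2 fold change of REL on scaled TPM was -0.41, and its longest annotated transcript had a GC content of 38.7%.

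RELA encodes p65, the main activating subunit, and had 24.7 ± 4.63 scaled TPM (SD, n = 3) with vehicle and 31.7 ± 5.03 scaled TPM (SD, n = 3) with DOX. RELB and NFKB2, the partners of the noncanonical pathway, had 2.56 ± 0.804 and 5.39 ± 0.976 scaled TPM with vehicle and 3.54 ± 0.971 and 7.28 ± 0.850 scaled TPM with DOX (SD, n = 3). NFKB1, the precursor of p50, had 11.4 ± 0.173 scaled TPM with vehicle and 12.1 ± 0.473 scaled TPM with DOX (SD, n = 3). For NFKB1 and NFKB2 every DOX sample lay above every vehicle sample, and the groups of RELA and RELB overlapped. The log2 fold changes were 0.35 for RELA, 0.36 for RELB, 0.08 for NFKB1 and 0.38 for NFKB2, with adjusted p-values between 0.283 and 0.724 by limma. In the voom fit with the block the adjusted p-values of RELA (0.0495) and NFKB2 (0.0366) lay under 0.05 while their fold changes stayed under 1.5. With the GC and length correction in that fit the adjusted p-values of RELA and NFKB2 were 0.605 and 0.713. With TPM as deposited the log2 fold changes of RELA, NFKB1 and NFKB2 were below 0 (-0.08, -0.33 and -0.01).

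The IkB proteins were divided in the same manner, with a lower mean for NFKBIZ and 4 of 5 log2 fold changes above 0 (1 of 5 with TPM as deposited). NFKBIZ encodes IkB-zeta, a nuclear member of the family that is induced by IL-1 and LPS and acts with NF-kB dimers on secondary response genes such as IL6 (chr3:101827991-101861022, GRCh38). Its level was 9.29, 10.3 and 8.69 scaled TPM in vehicle replicates 1, 2 and 3 and 6.01, 3.25 and 6.97 scaled TPM in DOX replicates 1, 2 and 3. The groups did not overlap, all DOX samples being lower, and DOX replicate 2 was lowest. Its log2 fold change by limma was -0.75 ± 0.21 (± standard error; adjusted p = 0.280, 95% confidence interval -1.22 to -0.27). In the voom fit with the replicate block NFKBIZ fell, with a log2 fold change of -0.88 (standard error 0.19, adjusted p = 0.0195). Without the block, voom gave NFKBIZ an adjusted p-value of 0.219. The GC and length correction left its log2 fold change on scaled TPM at -0.74, and without DOX replicate 2 it was -0.48.

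NFKBIA encodes IkB-alpha, the classical inhibitor that NF-kB itself induces, and was the most abundant member. Its level was 111, 109.6 and 111 scaled TPM in vehicle replicates 1, 2 and 3 and 142, 110.2 and 134 scaled TPM in DOX replicates 1, 2 and 3. The vehicle samples were nearly equal, DOX replicates 1 and 3 lay above them and DOX replicate 2 lay among them. NFKBIA had a log2 fold change of 0.21 (standard error 0.13, adjusted p = 0.419 by limma). NFKBIE, which encodes the inhibitor IkB-epsilon, had 2.13 ± 0.616 scaled TPM with vehicle and 3.42 ± 0.843 scaled TPM with DOX (SD, n = 3), with no overlap and a log2 fold change of 0.50 (adjusted p = 0.281 by limma). NFKBIB (IkB-beta) and BCL3, a nuclear coactivator of p50 and p52 dimers, had overlapping groups and log2 fold changes of 0.25 and 0.18. Both turned below 0 after the GC and length correction (-0.01 and -0.15) and with TPM as deposited (-0.12 and -0.25).

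None of the IKK genes was called in any of the 3 fits above, with 3 of 4 log2 fold changes above 0 (1 of 4 with TPM as deposited). CHUK (IKK-alpha) had 15.8 ± 0.821 scaled TPM with vehicle and 14.2 ± 2.97 scaled TPM with DOX, and IKBKB (IKK-beta) had 3.01 ± 0.281 and 3.18 ± 0.360 scaled TPM (SD, n = 3). Their log2 fold changes were -0.16 and 0.06. IKBKG, the regulatory subunit NEMO, had 0.961 ± 0.361 and 1.49 ± 0.473 scaled TPM (log2 fold change 0.34), and its value is uncertain because a near-identical pseudogene copy can share its reads. IKBKE, an inducible IKK-related kinase, had 2.03 ± 0.214 scaled TPM with vehicle and 2.44 ± 0.300 scaled TPM with DOX (log2 fold change 0.18), with every DOX sample above every vehicle sample.

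Among adaptors and feedback regulators, IRAK1 was the member with the highest log2 fold change. IRAK1 encodes the kinase that couples IL-1 and Toll-like receptors to TRAF6 (chrX:154010506-154019902, GRCh38). Its level was 18.8, 14.0 and 13.8 scaled TPM in vehicle replicates 1, 2 and 3 and 29.2, 22.6 and 19.4 scaled TPM in DOX replicates 1, 2 and 3. Every DOX sample lay above every vehicle sample, although DOX replicate 3 exceeded vehicle replicate 1 only slightly. IRAK1 had a log2 fold change of 0.58 (standard error 0.17, adjusted p = 0.280 by limma). In the voom fit with the replicate block IRAK1 rose, with a log2 fold change of 0.62 (standard error 0.10, adjusted p = 0.0106). Without the block, voom gave IRAK1 an adjusted p-value of 0.230. The GC and length correction moved its log2 fold change on scaled TPM to 0.34.

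BIRC3, the ubiquitin ligase cIAP2 and an NF-kB target, had 14.6, 18.5 and 17.6 scaled TPM in vehicle replicates 1, 2 and 3 and 9.76, 16.7 and 12.7 scaled TPM in DOX replicates 1, 2 and 3. DOX replicate 2 lay among the vehicle samples, and the difference of BIRC3 was -0.37 on the log2 scale (adjusted p = 0.335 by limma) and -0.07 after the GC and length correction. In the voom fit with the block its adjusted p-value was 0.0350 with a fold change under 1.5, and 0.852 with the correction added. TNFAIP3, the deubiquitinase A20 that ends signalling, had 4.85 ± 0.189 scaled TPM with vehicle and 4.42 ± 0.491 scaled TPM with DOX (SD, n = 3). TRAF2, an adaptor of TNF receptors, had 4.98 ± 1.15 and 6.78 ± 0.946 scaled TPM, and its partner TRAF1 had 1.26 ± 0.290 and 1.11 ± 0.214 scaled TPM. IRAK2 and the TNF-induced gene TNFAIP2 had log2 fold changes of 0.03 and 0.20, compared with -0.11 for TNFAIP3, -0.10 for TRAF1 and 0.39 for TRAF2. The groups of these 5 genes overlapped, and none was called in any of the 3 fits.

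The secreted factors IL6, CXCL8 and CXCL2 were among the members with the lowest log2 fold changes, together with NFKBIZ and REL. Of 9 tested, 7 had log2 fold changes below 0 and 2 above (9 and 0 with TPM as deposited), and the median was -0.18. IL6 encodes interleukin-6, an inflammatory cytokine that acts through STAT3 (chr7:22725884-22732002, GRCh38). Its level was 45.2, 53.2 and 50.1 scaled TPM in vehicle replicates 1, 2 and 3 and 37.9, 13.9 and 41.2 scaled TPM in DOX replicates 1, 2 and 3. The DOX samples were all lower than the vehicle samples, and DOX replicate 2 lay far below the other two. In cultures sequenced in bulk, fewer cells that express a gene and less of its RNA in each cell cannot be told apart. The log2 fold change of IL6 was -0.80 (standard error 0.33, adjusted p = 0.292 by limma, 95% confidence interval -1.53 to -0.07). It was -0.32 without DOX replicate 2 and -0.78 in the voom fit with the replicate block (adjusted p = 0.0591).

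CXCL8 encodes the neutrophil chemokine IL-8 (chr4:73740519-73743716, GRCh38). Its level was 46.4, 69.8 and 50.6 scaled TPM in vehicle replicates 1, 2 and 3 and 35.1, 20.0 and 47.6 scaled TPM in DOX replicates 1, 2 and 3. DOX replicate 3 lay above vehicle replicate 1, so the groups overlapped. By limma, CXCL8 had a log2 fold change of -0.74 ± 0.27 (± standard error; adjusted p = 0.281, 95% confidence interval -1.36 to -0.13), -0.41 without DOX replicate 2 and -0.78 in the voom fit with the block (adjusted p = 0.0505). CXCL2, a chemokine for the same receptor CXCR2, had 62.4, 70.5 and 63.2 scaled TPM in vehicle replicates 1, 2 and 3 and 56.4, 19.6 and 62.9 scaled TPM in DOX replicates 1, 2 and 3. Here DOX replicate 3 lay within the range of the vehicle samples, DOX replicate 1 lay below it and DOX replicate 2 lay far below both. Its log2 fold change was -0.65 with all samples (adjusted p = 0.367 by limma) and -0.13 without DOX replicate 2. IL24, a cytokine of the IL-10 family, had 2.57, 1.64 and 2.70 scaled TPM in vehicle replicates 1, 2 and 3 and 1.64, 0.589 and 2.16 scaled TPM in DOX replicates 1, 2 and 3. Its groups overlapped, and its log2 fold change was -0.47 with all samples (adjusted p = 0.354 by limma) and -0.18 without DOX replicate 2.

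CXCL1 and CXCL3 are close copies of CXCL2, and reads could be split between the 3 genes. CXCL1 had 3.55 ± 0.506 scaled TPM with vehicle and 3.15 ± 0.0682 scaled TPM with DOX, and CXCL3 had 1.46 ± 0.375 and 1.17 ± 0.316 scaled TPM (SD, n = 3), with log2 fold changes of -0.13 and -0.18. CSF1, the growth factor of macrophages, had 28.6 ± 2.09 scaled TPM with vehicle and 30.5 ± 7.32 scaled TPM with DOX (log2 fold change 0.07). LIF and IL11, cytokines of the IL-6 family, had log2 fold changes of -0.04 and 0.24, and IL11 was the only one of the 9 factors that was highest in DOX replicate 2, at 2.58 scaled TPM. The groups of these 5 genes overlapped.

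**Figure D3:**
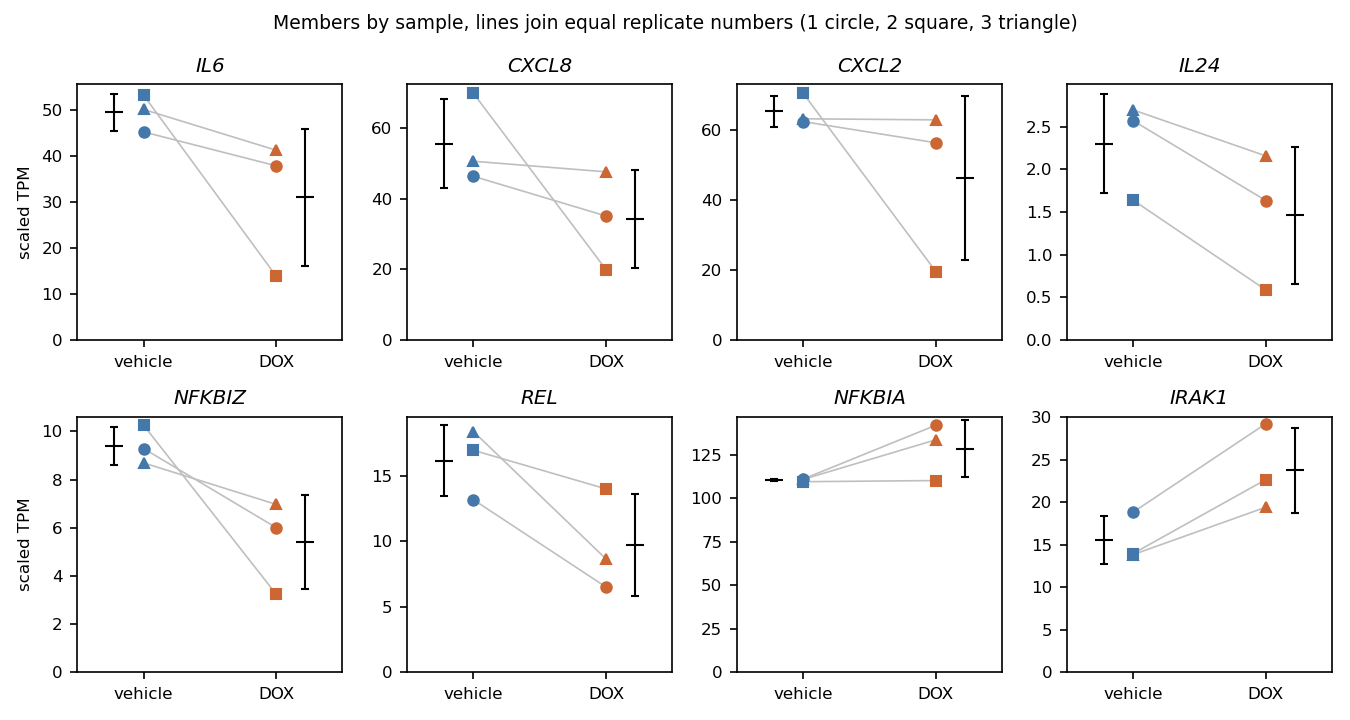
Scaled TPM in each sample for 8 members, on linear axes that start at 0, with grey lines between samples of equal replicate number and black bars for the mean ± SD of each group (n = 3). IL6, CXCL8, CXCL2 and NFKBIZ share a low value in DOX replicate 2 (squares), at 13.9, 20.0, 19.6 and 3.25 scaled TPM, whereas REL was lowest in DOX replicate 1 (circle), at 6.50 scaled TPM.

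The 7 members under the expression minimum were rarely read. IL1B, which encodes interleukin-1 beta, had 0 reads in all 6 samples, and a count of 0 allows up to 3 reads in a sample. TNF had 1 read in all, in DOX replicate 1, and IL1A had 3, in vehicle replicate 1. CSF2, which encodes GM-CSF, had 4, 5 and 1 reads in vehicle replicates 1, 2 and 3 and 10, 0 and 0 reads in DOX replicates 1, 2 and 3. PTGS2, the inducible cyclooxygenase COX-2, had 16, 24 and 6 and 36, 7 and 7 reads, or 0.171 ± 0.0217 scaled TPM with vehicle and 0.0675 ± 0.0141 scaled TPM with DOX (SD, n = 3). For CSF2 and PTGS2 the DOX samples were all lower than the vehicle samples in scaled TPM, and the two-sided exact permutation test gave p = 0.1 for each, the smallest value that 3 samples against 3 allow. The chemokine genes CCL2 and CCL20 had 0.943 ± 0.635 and 1.26 ± 0.853 scaled TPM with vehicle and 1.05 ± 0.0899 and 0.729 ± 0.235 scaled TPM with DOX (SD, n = 3), with overlapping groups.

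Of the surface and enzyme targets, SOD2, the mitochondrial superoxide dismutase, had 23.6, 29.0 and 29.7 scaled TPM in vehicle replicates 1, 2 and 3 and 20.0, 16.1 and 25.5 scaled TPM in DOX replicates 1, 2 and 3. DOX replicate 3 lay above vehicle replicate 1. For SOD2 the log2 fold change was -0.42 (adjusted p = 0.292 by limma) and -0.14 after the GC and length correction. In the voom fit with the block its adjusted p-value was 0.0392 with a fold change under 1.5, and 0.745 with the correction added. ICAM1, the adhesion molecule that binds leukocyte integrins, had 27.5 ± 7.21 scaled TPM with vehicle and 31.4 ± 4.96 scaled TPM with DOX (SD, n = 3), with overlapping groups and a log2 fold change of 0.21.

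DOX replicate 2 was the lowest of the 6 samples for 8 of the 9 secreted factors tested and for 15 of the 32 members (46.9%), compared with 15.2% of all genes tested. For CXCL1, CXCL3 and LIF the gap to the next lowest sample was under the SD of the vehicle samples. For CXCL8, IL24 and CSF1 the gap was over that SD but under the range of the vehicle samples. DOX replicate 1, the deepest library, was the highest sample for 16 members (50%), compared with 30.8% of all genes, and the lowest for REL, BIRC3 and CHUK (3 members). These counts were made after the values were seen. DOX replicate 2 had 18927036 reads and 76.0% of its TPM in the small RNAs, both within the range of the other samples. The part of a single culture or library in the low inflammatory values was not tested.

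**Figure D4:**
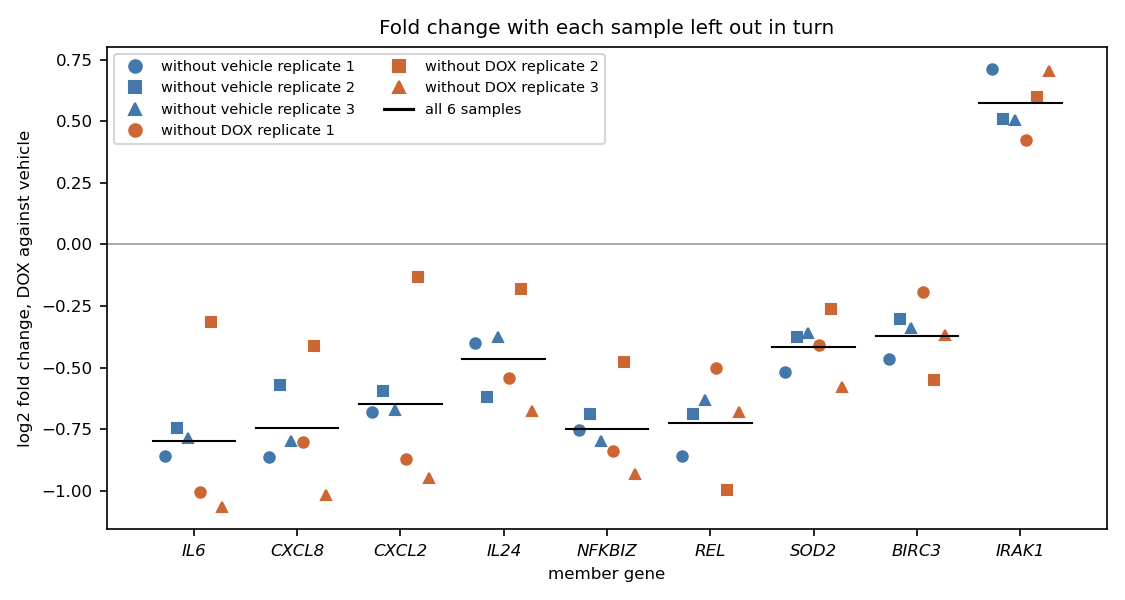
Log2 fold change of DOX against vehicle by limma on scaled TPM for 9 members with each sample left out in turn, where the symbol shows the sample left out and the black line is the value with all 6 samples. Without DOX replicate 2 (orange squares) the values of IL6, CXCL8, CXCL2 and IL24 moved to -0.32, -0.41, -0.13 and -0.18, while those of REL and BIRC3 moved away from 0.

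The fold changes of the members were higher where the GC content of their longest annotated transcript was higher, as were those of all genes. Across the 32 members Pearson's r was 0.76 and Spearman's rho 0.81, and across the 10788 genes tested that had a GC content r was 0.65 and rho 0.68. After the GC and length correction r was still 0.39 across the members, and -9.1e-12 across the 10788 genes to which the correction was fitted. These correlations are across genes measured in the same 6 libraries, and genes are not independent replicates. The members tested had a median GC content of 53.8%, compared with 47.1% for the 10788 genes. REL (38.7%), BIRC3 (35.8%) and CXCL8 (32.5%) were AT-rich and had values below 0, whereas RELB (64.9%), NFKB2 (62.4%), NFKBIE (61.0%) and IRAK1 (62.7%) were GC-rich and had values above 0. NFKB1 (36.0%) was AT-rich with a log2 fold change of 0.08, which became 0.38 after correction. IL6 and NFKBIZ, of intermediate GC content (47.3% and 46.2%), kept log2 fold changes of -0.82 and -0.74 after correction. Whether the base composition of the libraries contributed to the values of single members was not tested.

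**Figure D5:**
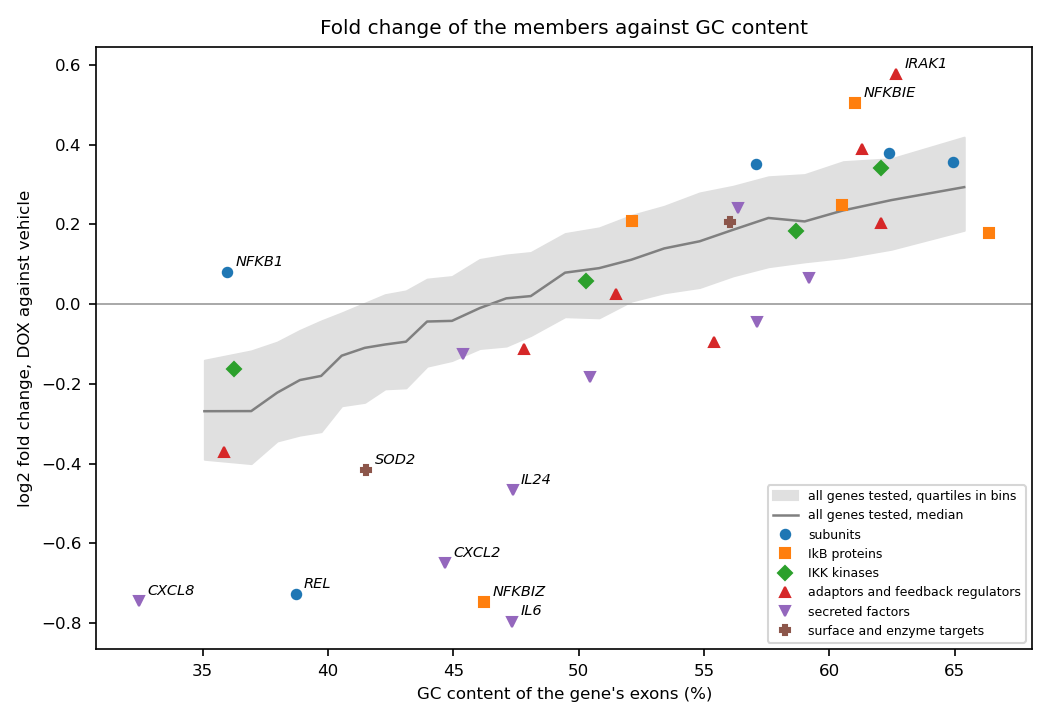
Log2 fold change of DOX against vehicle plotted against the GC content of the exons of each gene's longest transcript, in percent, for the 32 members by role, with the median and the quartiles of all genes tested in bins of GC content as a grey line and band. Of the genes named in the plot, REL, CXCL2, NFKBIZ, IL6, IL24 and SOD2 lie below the grey band, NFKB1, NFKBIE and IRAK1 lie above it, and CXCL8 has a lower GC content than the band covers, while several genes not named there also lie outside the band.

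Members with and without the searched letters in their promoter also differed in their values. The 12 tested members with a match had a median log2 fold change of -0.15, with 9 below 0 and 3 above, whereas 15 with a promoter sequence and no match had a median of 0.20, with 4 below 0 and 11 above. After the GC and length correction these medians were -0.28 and -0.01. The median of all genes tested was 0.02 on both scales. The members with a match include the secreted factors IL6, CXCL1, CXCL2, CXCL3 and CXCL8, each lowest in DOX replicate 2. The split by letters therefore overlaps the split by role. The members were not chosen at random and the split was not tested.

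Other genes of the pathway gave few calls. Of 37 receptors and upstream signalling genes 35 were tested, and limma on scaled TPM called 0 lower and 0 higher (also 0 and 0 by the unadjusted rule), with a median log2 fold change of 0.04. The voom fit with the block called 2 of these 35 higher and 0 lower, compared with 1.47% of all genes higher and 2.15% lower. MAP3K14, the NIK kinase of the noncanonical pathway, rose by 0.61 on the log2 scale (adjusted p = 0.0153), from 8.44, 5.93 and 4.93 scaled TPM in vehicle replicates 1, 2 and 3 to 11.1, 10.7 and 7.67 scaled TPM in DOX replicates 1, 2 and 3. TNIP2, a partner of A20, rose by 0.60 (adjusted p = 0.0348). By limma on scaled TPM the log2 fold changes of MAP3K14 and TNIP2 were 0.55 and 0.43 (adjusted p = 0.281 and 0.283). Of 35 further NF-kB target genes 24 were tested, and limma on scaled TPM called 0. By the unadjusted rule 1 was lower and 1 higher, compared with 1.15% of all genes lower and 1.18% higher. The voom fit with the block called 1 of the 24 lower and 1 higher. In the voom fit with the block TNFSF10, which encodes the death ligand TRAIL, fell by 1.29 on the log2 scale (adjusted p = 0.0221), from 2.17 ± 0.345 to 0.895 ± 0.469 scaled TPM (SD, n = 3), and DOX replicate 2 was again lowest. By limma on scaled TPM its log2 fold change was -0.77 (adjusted p = 0.268), and it lay between -0.93 and -0.56 when single samples were omitted. The cytokine gene IL32 rose by 0.80 on the log2 scale (adjusted p = 0.0169), from 8.16 ± 0.703 to 13.2 ± 3.38 scaled TPM (SD, n = 3), and its log2 fold change by limma on scaled TPM was 0.60 (adjusted p = 0.280). With GC and length correction in the same fit, 0 genes of either list were called. By voom without the block the adjusted p-values of MAP3K14, TNIP2, TNFSF10 and IL32 were 0.240, 0.242, 0.219 and 0.231.

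MUC1 and TARDBP, which the study places with XIST and NF-kB, differed by less than the spread between replicates. MUC1 had 14.8 ± 1.92 scaled TPM with vehicle and 16.0 ± 5.16 scaled TPM with DOX, and TARDBP had 28.9 ± 2.92 and 28.1 ± 4.87 scaled TPM (SD, n = 3). Their log2 fold changes were 0.06 (95% confidence interval -0.43 to 0.54) and -0.05 (95% confidence interval -0.39 to 0.29), with adjusted p-values of 0.908 and 0.880 by limma. In DU-145 cells with XIST silenced, the paper reports lower MUC1 gene transcription, MUC1-C mRNA by qRT-PCR, and MUC1-C, NF-kB and TDP-43 protein by immunoblot. It also reports less MUC1-C and NF-kB at the MUC1 enhancer, and lower MUC1-C and TDP-43 expression in tumorspheres. The mRNA levels in the paper were compared with those of cells given a control hairpin or siRNA. Its immunoblot of MUC1-C and NF-kB followed a longer DOX treatment than the 7 days here, and protein was not measured here.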

How the data were processed

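RNA-seq was performed on DU-145/tet-XISTshRNA cells, 3 samples treated with vehicle and 3 with DOX, and groups and replicate numbers were taken from the sample labels. The authors prepared stranded mRNA libraries, used STAR for alignment to GRCh38, and deposited TPM for 25528 gene symbols. Which tool counted reads, and whether by strand, is not given in the sources used here. The authors also deposited a DESeq2 table of fold changes, standard errors and p-values, which were not used. Its mean of normalized counts, a signal that the authors averaged over all samples after scaling for depth, was used to recover reads per gene, and 100% of 102298 values above 0 came out whole within 0.05. This also gave the depth of each sample. Identical samples were looked for and 0 pairs found.

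TPM was scaled by the median of ratios. Genes with a mean of at least 1 (11595) were fitted with limma 3.58.1 (R 4.3.3) on log2(scaled TPM + 1) with eBayes and a variance trend, with Benjamini-Hochberg adjustment over all of them. In simulated data 92.9% of 197 genes with a 2-fold change were recovered, with 5 false calls among 13732 genes. The simulation gave every gene the same relative spread and held no GC content trend and no replicate effect. Its rates therefore do not measure how many changes the fit would find in these samples. Alternatives were TPM as deposited or without 5 small RNAs, a pseudocount of 0.1, other expression minimums, voom on the recovered reads, a spline correction (5 degrees of freedom) for GC content and length, the replicate number as a block, and each sample left out. GC content and length were those of the longest transcript of each gene in GENCODE release 44, which need not be the one expressed. Vehicle and DOX samples of the same number deviated together from the group means (r across genes of 0.56, 0.26 and 0.19 for numbers 1, 2 and 3). Vehicle replicate 2 and DOX replicate 3 also correlated (r = 0.22), and after the GC content and length correction r was 0.18, 0.037 and 0.15 for numbers 1, 2 and 3. The numbers were taken to pair the samples on the uncorrected correlations alone.

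All members were named, and of the other pathway lists those past the call rule, together with MUC1, TARDBP and XIST. Members and lists were chosen with earlier results of these data known. One further marker list is not reported here. Tables and figures were made with Python 3.11.15, pandas 2.3.3, SciPy 1.17.1 and matplotlib 3.10.9.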

Additional observations from a re-analysis of the deposited data

How the results depend on the processing

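No member was called by limma on scaled TPM, and the count stayed at 0 with a pseudocount of 0.1, without the 5 small RNAs, with other expression minimums, with the replicate block on scaled TPM and with any single sample left out. With TPM as deposited, 321 genes, 6 members and 1 gene of the pathway lists were called, and the replicate block on that scale raised these counts to 2221, 8 and 13. Voom on recovered reads called 1 gene, and with the replicate block, which pairs samples of the same number, 420 genes, 3 members and 4 genes of the pathway lists. Adding the GC content and length correction left 8 genes and 0 members called. An expression minimum of 5 called 1 gene. The replicate block on scaled TPM changed no call, and samples were left out in turn only in limma on scaled TPM, not in the voom fit with the block that called REL, NFKBIZ and IRAK1.

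With TPM as deposited, with or without the block, the median log2 fold change of the members was -0.33, and by role it was -0.080 (subunits), -0.23 (IkB proteins), -0.21 (IKK kinases), -0.32 (adaptors and feedback regulators), -0.47 (secreted factors), -0.54 (surface and enzyme targets). The median of the secreted factors was -0.37 by voom, -0.37 with the block, -0.51 with the block and the correction, and -0.65 at a minimum of 5, where those of the IKK kinases and adaptors were -0.16 and 0.30. After the GC content and length correction the medians of the subunits and IkB proteins were 0.14 and -0.012, and in the voom fit with the block and correction those of the subunits and of all members were 0.12 and -0.054.

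Of the 32 members 17 kept their direction in every alternative. With TPM as deposited, with or without the block, values turned below 0 for RELA (-0.080), NFKB1 (-0.33), NFKB2 (-0.0058), NFKBIA (-0.23), NFKBIB (-0.12), BCL3 (-0.25), IKBKB (-0.28), IKBKE (-0.13), TNFAIP2 (-0.22), IRAK2 (-0.32), IL11 (-0.015), CSF1 (-0.37), ICAM1 (-0.23), MUC1 (-0.37). Without the 5 small RNAs they turned for NFKB1 (-0.0028), IKBKB (-0.013), IRAK2 (-0.057), CSF1 (-0.022), MUC1 (-0.033). The GC content and length correction turned NFKBIB (-0.012), BCL3 (-0.15), CHUK (0.085), IKBKE (-0.022), TNFAIP2 (-0.0076), IRAK2 (-0.071), CSF1 (-0.13), MUC1 (-0.20), TARDBP (0.10), and with voom and the block it turned BCL3 (-0.22), CHUK (0.11), TNFAIP2 (-0.064), IRAK2 (-0.12), CSF1 (-0.17), ICAM1 (-0.037), MUC1 (-0.26), TARDBP (0.13). Voom with the block turned IRAK2 (-0.0073).

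With each sample left out in turn, 0 to 14 genes were called, the most without vehicle replicate 1. The medians ranged from 0.15 to 0.46 for subunits, -0.062 to 0.17 for adaptors and feedback regulators. The members and study genes whose direction turned ranged from -0.064 to 0.44 for BCL3, -0.0014 to 0.13 for IKBKB, -0.062 to 0.17 for IRAK2, -0.14 to 0.026 for LIF, -0.093 to 0.25 for CSF1, -0.14 to 0.32 for MUC1, -0.14 to 0.096 for TARDBP. The causes of these differences were not tested. Vehicle replicate 3 held 5459261 reads, and members of low level such as CXCL3 and IKBKG had 9 and 14 reads there, which limits their precision.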
